A study of Homo sapiens with 6 samples.

Results

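The ETS transcription factors described here are ETV1, ETV4, ETV5, ETS1, ETS2, ELF3, EHF, ELK3, ERF and SPDEF, 10 genes chosen by name out of the 27216 rows of the expression table. The human genome holds 28 ETS genes. All 28 were listed in the table, so 18 ETS genes were not members, and these are given beside the members where a comparison needs them. The members were measured by RNA sequencing in H1975, a human lung cancer line (NSCLC) with mutated EGFR, labelled as wild type in genotype and grown with serum, in DMEM by the labels and in another medium by the study's methods. The parental group was 3 samples at 0 h of osimertinib (Osi, an EGFR tyrosine kinase inhibitor), and the adapted group was 3 samples after 72 h at 1000 nM. The study asked how such cells come to tolerate the drug within 3 days.

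Several facts limit the groups as a model. Dead and dying cells were rinsed off before RNA was taken from the drug-treated cultures, so the adapted values describe the cells that stayed attached. The parental columns carry the name of the solvent, DMSO, and whether those cells received it, and for how long, is not stated. Time in culture and drug exposure therefore cannot be told apart. The labels also describe a digestion of linear RNA with RNase R, as done for circular RNA, whereas the methods of the study name total RNA without this step. The study says in general terms that its data come from independent experiments, but neither the labels nor the sequencing methods say whether the 3 samples of a group were separate cultures. Every p-value therefore measures the spread between these samples, which may be technical. No read counts were used, sequencing depth is unknown, and the number of samples sets the precision.

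ETS proteins share a DNA-binding domain, the ETS domain, that recognizes a short core of GGAA or GGAT. Many of them are end points of the receptor tyrosine kinase, RAS and ERK pathway: ERK phosphorylates some of them directly, and the transcription of others rises and falls with the pathway. The PEA3 subfamily (ETV1, ETV4 and ETV5) is held down by the repressor CIC, which ERK signaling removes from DNA, and its proteins are degraded through the ubiquitin ligase COP1. ERF is a repressor that leaves the nucleus when ERK is active, ELK3 is a ternary complex factor that works with SRF, ETS1 and ETS2 are ERK-phosphorylated activators, and ELF3, EHF and SPDEF are found mainly in epithelia.

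Values below are the deposited log2(FPKM + 1), with FPKM meaning fragments counted per length of transcript and per depth of sequencing. The unit was inferred from the values. A log2 fold change is the adapted mean minus the parental mean on this scale, where weakly expressed genes show too small a change, and SE is its standard error. Rows with a mean of at least 1 (12656 rows) were tested with limma with Benjamini-Hochberg adjustment over all of them and a threshold of 0.05. Of these rows, 56.9% passed the threshold, 30.7% as higher and 26.2% as lower in adapted cells, and in 66.3% the 3 adapted values did not overlap the 3 parental ones. Every count for a gene list has to be read against these shares.

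Among the adapted samples, replicate 1 stood apart. Across all 27216 rows, which include those under the filter and are not independent of each other, its values correlated with replicates 2 and 3 at r = 0.991. Replicates 2 and 3 correlated with each other at r = 0.996. Replicate 1 was also closer to the parental samples over these rows. It correlated with them at r from 0.9725 to 0.9727, and replicates 2 and 3 did so at r from 0.9632 to 0.9636. The changes of the members are therefore also given without adapted replicate 1.

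All 10 members passed the filter on low values. Of these, 8 of 10 fell (ETV1, ETV4, ETV5, ETS2, ELF3, EHF, ERF and SPDEF), where 26.2% of all rows did, none rose, and ETS1 and ELK3 did not pass the threshold. The groups did not overlap in the same 8 genes, against 66.3% of all rows. The median log2 fold change of the members was -0.67, against 0.03 over all rows tested. The falls came in 2 sizes: ETV1, ETV4, ETV5 and SPDEF fell by at least 1.77 on the log2 scale, and the other 4 fell by at most 0.71. A log2 fold change of -1 or less was found in 5.24% of all rows. The members were chosen with earlier results of these data known, so these contrasts with all rows are descriptions and not tests. Among the 8 other ETS genes that passed the filter, 2 fell, 1 rose and 5 did not pass the threshold. In bulk RNA, fewer cells that express a gene and less of its RNA per cell cannot be told apart.

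**Figure D1:**
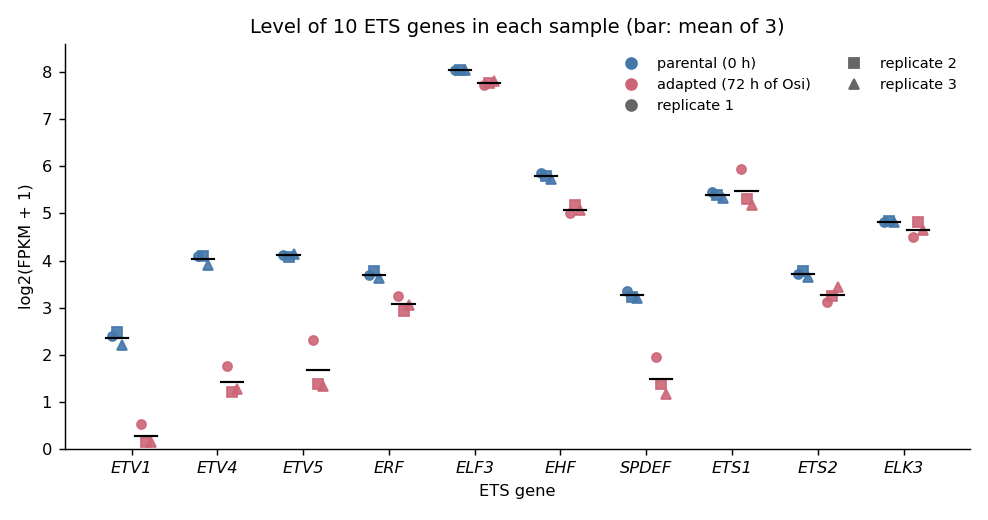
Level of the 10 ETS genes as log2(FPKM + 1) on the vertical axis, with 1 point per sample (blue for parental, red for adapted, marker shape for the replicate number) and a black bar for the mean of 3. ETV1, ETV4, ETV5 and SPDEF show a wide gap between the colours, ELF3 stands near 8 in both groups, and the red points of ETS1 lie on either side of the blue ones.

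The PEA3 subfamily consists of 3 activators with nearly the same DNA-binding domain, known for branching morphogenesis of the lung and, as fusion or amplified genes, for prostate and other cancers. All 3 fell, and they were 3 of the 4 members with the largest falls. ETV4 lies on the minus strand of chr17:43527844-43579620 (hg38, GENCODE v29). Its level was 4.09, 4.10 and 3.91 in parental replicates 1, 2 and 3, and 1.77, 1.21 and 1.27 in the adapted replicates. Every adapted value was more than 2 log2 units under the lowest parental value. The log2 fold change was -2.62 (SE 0.15, 95% interval -2.97 to -2.26, limma adjusted p = 1.67e-05). In FPKM the mean went from 15.4 ± 1.19 to 1.71 ± 0.601 (SD, n = 3 each), a ratio of 9.01. This log2 fold change lay at the 0.435 percentile of all rows.

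ETV5 (minus strand, chr3:186046308-186110318) controls, among other things, the alveolar type 2 cell, the surfactant-making cell of the lung. It stood at 4.12, 4.07 and 4.13 in parental cells and at 2.31, 1.38 and 1.33 in adapted cells. The groups lay far apart, but adapted replicate 1 kept almost a log2 unit more ETV5 than replicates 2 and 3. Its log2 fold change was -2.43 (SE 0.24, 95% interval -3.01 to -1.86, limma adjusted p = 0.000177), and its FPKM went from 16.2 ± 0.376 to 2.36 ± 1.39. The adapted SD of ETV5 on the log2 scale, 0.554, was larger than that of 97.9% of all rows. Its ratio of FPKM means was 6.87, and 10.4 without adapted replicate 1.

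ETV1 (minus strand, chr7:13891228-13991425), a factor known from gastrointestinal stromal tumors and prostate cancer, was the lowest of the PEA3 genes. It stood at 2.40, 2.49 and 2.20 in parental cells and at 0.53, 0.14 and 0.14 in adapted cells. Replicate 1 was again the highest adapted sample, and no value overlapped. The log2 fold change was -2.09 (SE 0.14, 95% interval -2.42 to -1.77, limma adjusted p = 3.02e-05). Because ETV1 ended near 0, this value depends on the added constant and was -3.91 with a pseudocount of 0.1. The FPKM means, 4.16 ± 0.523 and 0.217 ± 0.198, gave a ratio of 19.2, the largest of the 10 members. This ratio rested on adapted replicate 1, which held most of the remaining ETV1, and was 40.6 without it.

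The proportions among the PEA3 genes were compared as ratios. The ETV4 to ETV5 ratio of FPKM, on the log2 scale, averaged -0.08 ± 0.137 in the parental samples and, in the adapted samples, -0.37 ± 0.320 (SD, n = 3 in each group), and the difference was within the spread (two-sided exact permutation p = 0.2, adjusted p = 0.2 over 6 ratios). The shift of -0.29 was -0.11 without adapted replicate 1. The log2 ratio of ETV4 to ETV1 was 1.91, 1.80 and 1.97 in parental cells and 2.43, 3.72 and 3.76 in adapted cells. These values did not overlap, and p was 0.1 in the exact permutation test, the smallest that 3 against 3 samples allow (0.12 adjusted). ETV1 itself was near 0 in the adapted samples, where a ratio is imprecise. In exons, ETV4 overlaps DHX8 on the opposite strand, which stood at 4.45 in parental and 4.48 in adapted cells. ETV5 overlaps DGKG on its own strand, which went from 1.095 to 0.66. Whether the authors counted by strand is not given in the sources used here.

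Promoter sequence was available from RefSeq (GRCh38.p14) for 7 of the 10 members, with 17 windows of 250 bases before a transcript start; ETV4, ETV5 and ETS1 have no entry in the table. The windows were searched on both strands for TGAATGAA and TGAATGGA, the octamers bound by CIC. At least 1 of the 2 octamers was found in 2.19% of all 35116 windows and in 2 of the 17 member windows, those of ETV1 and SPDEF. Both windows with a match are printed. ETV1 has 6 windows and SPDEF has 1, and the other ETV1 windows hold neither octamer. The printed windows run 5′ to 3′ on the gene's strand, with the octamer in capitals.
ETV1, chr7:13991426-13991675, minus strand: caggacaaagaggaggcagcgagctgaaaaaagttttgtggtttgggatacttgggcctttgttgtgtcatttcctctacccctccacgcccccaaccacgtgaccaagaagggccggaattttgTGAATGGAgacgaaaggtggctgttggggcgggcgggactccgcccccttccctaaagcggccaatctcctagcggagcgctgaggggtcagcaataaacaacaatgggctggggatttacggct
SPDEF, chr6:34556330-34556579, minus strand: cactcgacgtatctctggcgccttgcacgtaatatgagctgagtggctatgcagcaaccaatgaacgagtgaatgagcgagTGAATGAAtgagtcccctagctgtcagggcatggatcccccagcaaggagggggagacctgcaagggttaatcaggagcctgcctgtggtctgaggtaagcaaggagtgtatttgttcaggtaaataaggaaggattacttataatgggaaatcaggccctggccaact
The SPDEF window holds its octamer 169 bases before the start, and the printed ETV1 window 125 bases before it. The ETS sequence CCGGAAGT was found in 3.42% of all windows and in 0 of the 17. A match describes the letters of a window and not the binding of a factor.

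ERF, on the minus strand of chr19:42247572-42255157, is an ETS repressor that competes for the sites the activators use. Its level was 3.69, 3.78 and 3.63 in parental cells and 3.24, 2.92 and 3.05 in adapted cells, with no overlap. In exons, ERF overlaps the protein-coding gene AC006486.1 on its own strand, which went from 0.585 in parental to 0.242 in adapted cells. ERF fell by 0.63 on the log2 scale (SE 0.10, limma adjusted p = 0.00116). The activators of the PEA3 subfamily fell by more: the log2 ratio of ETV5 to ERF FPKM was 0.46, 0.32 and 0.53 in parental cells and -1.09, -2.03 and -2.26 in adapted cells. The sign of the ratio thus differed between the groups: ETV5 was above ERF in all parental samples and under it in all adapted samples (two-sided exact permutation p = 0.1, adjusted p = 0.12 over 6 ratios).

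SPDEF (minus strand, chr6:34537802-34556333) is an epithelial ETS factor that drives goblet and other secretory cells and prefers a GGAT core. It stood at 3.35, 3.23 and 3.21 in parental cells and at 1.94, 1.37 and 1.17 in adapted cells. All adapted values were more than 1 log2 unit under the parental ones, and replicate 1 was the least reduced. Its log2 fold change was -1.77 (SE 0.19, 95% interval -2.21 to -1.34, limma adjusted p = 0.000212), and its FPKM went from 8.63 ± 0.498 to 1.89 ± 0.839, a ratio of 4.57.

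Genes that SPDEF-expressing secretory cells make moved in both directions. Of 10 such genes, 5 passed the filter on low values. Of these, 3 fell, against 26.2% of all rows, 1 rose, against 30.7%, and 1 did not pass the threshold. The gel-forming mucin MUC5B stood at 6.10, 6.06 and 6.05 in parental cells and at 1.99, 1.08 and 1.01 in adapted cells. Its log2 fold change was -4.71 (SE 0.24), and limma gave an adjusted p of 1.01e-05. AGR2, a disulfide isomerase needed for mucin folding, fell by 1.38 on the log2 scale (adjusted p = 0.000488), and XBP1, a transcription factor of the secretory pathway, fell by 0.51 (adjusted p = 0.000725). The paralog AGR3 rose from 0.31, 0.25 and 0.44 to 1.75, 2.20 and 2.21 (log2 fold change 1.72, adjusted p = 8.07e-05). AGR2 and AGR3 thus moved in opposite directions, with no overlap between groups in either gene.

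ELF3 and EHF form, with ELF5, the subfamily of epithelium-specific ETS factors. ELF3, on the plus strand of chr1:202007945-202017188, was the most abundant ETS gene in every sample. Its level was 8.04, 8.05 and 8.05 in parental cells and 7.74, 7.78 and 7.82 in adapted cells. The parental samples were almost the same, and only 1.6% of all rows had a smaller parental SD. The groups did not overlap, and ELF3 fell by 0.27 on the log2 scale (SE 0.06, limma adjusted p = 0.00673), from 263 ± 1.37 to 219 ± 6.59 FPKM. This is the smallest of the 8 falls, and under quantile normalization it was -0.10 with a limma adjusted p of 0.252.

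EHF, on the plus strand of chr11:34621093-34661057, regulates epithelial differentiation. It stood at 5.86, 5.79 and 5.73 in parental cells and at 5.0, 5.17 and 5.08 in adapted cells. It fell by 0.71 on the log2 scale (SE 0.07, limma adjusted p = 0.000148), from 54.4 ± 2.48 to 33.0 ± 2.08 FPKM. Unlike in the PEA3 genes, adapted replicate 1 was the lowest sample here and in ELF3. The log2 ratio of ELF3 to EHF FPKM averaged 2.28 ± 0.073 over the parental and 2.73 ± 0.0816 over the adapted samples (SD, n = 3), with no overlap (two-sided exact permutation p = 0.1, adjusted p = 0.12 over 6 ratios). ELF5, their close relative and the neighbour of EHF on chromosome 11, was listed at 0 in all 6 samples.

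Among 20 genes of epithelia in which ELF3 and EHF are active, 8 fell, against 26.2% of all rows, and 5 rose, against 30.7%. The other 7 did not pass the threshold, and the median log2 fold change of the 20 was -0.08. The genes that fell most encode small proline-rich proteins of the cornified envelope. SPRR2A stood at 3.40, 3.37 and 3.35 in parental cells and at 0.51, 0.11 and 0.12 in adapted cells (log2 fold change -3.13, limma adjusted p = 3.51e-06). SPRR1B fell by 1.85 (adjusted p = 4.86e-05) and SPRR1A fell by 1.79 (adjusted p = 0.000498). Of the 3 grainyhead genes, which encode epithelial transcription factors of another class, GRHL3 rose by 1.60 (adjusted p = 0.0012) and GRHL2 by 0.72 (adjusted p = 0.00671). The other, GRHL1, had a log2 fold change of 0.39 with overlapping groups (adjusted p = 0.158). TGM1, the transglutaminase that cross-links cornified envelope proteins, rose by 0.69 (adjusted p = 0.0102). Not all small proline-rich genes fell: SPRR3, named after its values were seen, rose by 0.68 (adjusted p = 0.0057).

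ETS1 and ETS2 are closely related activators that ERK phosphorylates next to their pointed domain. ETS1 (minus strand, chr11:128458761-128587558) stood at 5.45, 5.39 and 5.32 in parental cells and at 5.94, 5.30 and 5.18 in adapted cells. Adapted replicate 1 was above all parental samples and replicates 2 and 3 were under them, so the groups overlapped. The log2 fold change was 0.09 (SE 0.18, 95% interval -0.34 to 0.52, limma adjusted p = 0.705), and without adapted replicate 1 it was -0.15 (adjusted p = 0.0701). The sign of the difference in ETS1 thus rested on 1 library.

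ETS2 (plus strand, chr21:38805307-38824955) stood at 3.71, 3.77 and 3.65 in parental cells and at 3.12, 3.24 and 3.44 in adapted cells. The groups did not overlap, and ETS2 fell by 0.44 on the log2 scale (SE 0.09, limma adjusted p = 0.00527), with FPKM means of 12.1 ± 0.539 and 8.66 ± 1.11. Replicate 1 was the lowest adapted sample of ETS2 and the highest of ETS1. The log2 ratio of ETS1 to ETS2 FPKM went from 1.76 ± 0.062 to 2.33 ± 0.583 (two-sided exact permutation p = 0.1, adjusted p = 0.12 over 6 ratios). The shift of 0.58 became 0.26 without adapted replicate 1.

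ELK3 (plus strand, chr12:96194382-96269835), a ternary complex factor that represses until ERK phosphorylates it, stood at 4.81, 4.84 and 4.82 in parental cells and at 4.50, 4.81 and 4.64 in adapted cells. Replicates 1 and 3 were under the parental range, and adapted replicate 2 was at its lower end. The log2 fold change was -0.17 (SE 0.08, 95% interval -0.37 to 0.03, limma adjusted p = 0.118). Without adapted replicate 2 it was -0.25 with an adjusted p of 0.0231, so the call on ELK3 also rested on 1 library.

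**Figure D2:**
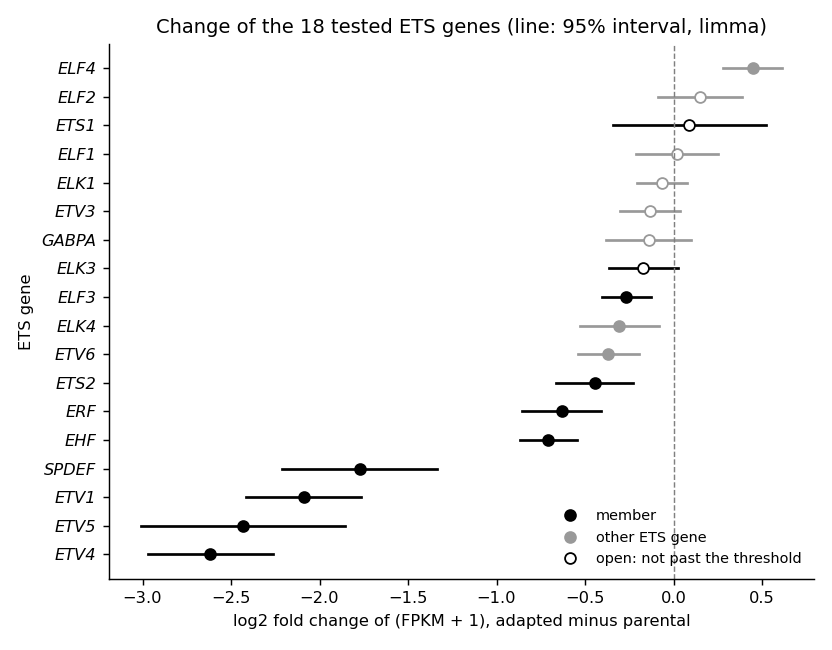
Log2 fold change, adapted minus parental, of the 18 ETS genes that passed the filter, ordered by value (black for the 10 members, grey for the 8 other genes, line for the 95% interval from limma with 3 samples per group, open point where the threshold was not passed). ETV4, ETV5, ETV1 and SPDEF lie to the left of -1.7, and ELF4 at 0.45 is the 1 gene whose interval lies wholly above 0.

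Of the 18 ETS genes that were not members, 8 passed the filter. ELF4, an activator known from lymphoid and innate immune cells, rose from 4.68, 4.72 and 4.70 to 5.14, 5.04 and 5.27 (log2 fold change 0.45, SE 0.07, limma adjusted p = 0.00151). It was the 1 ETS gene of the 18 tested that rose. The repressor ETV6 fell by 0.37 (adjusted p = 0.00434), and the ternary complex factor ELK4 by 0.31 (adjusted p = 0.027), a call that was lost without parental replicate 1 (-0.27, adjusted p = 0.0978), parental replicate 2 (-0.31, adjusted p = 0.0791) or adapted replicate 3 (-0.24, adjusted p = 0.0746).

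The other 5 tested genes did not pass the threshold. The log2 fold changes of ETV3 and ELK1 were -0.13 and -0.06, that of GABPA was -0.14, and those of ELF1 and ELF2 were 0.02 and 0.15 (limma adjusted p from 0.155 to 0.870). Without adapted replicate 1, ETV3 and ELF2 passed it in opposite directions, with -0.19 (adjusted p = 0.0229) and 0.24 (adjusted p = 0.0216). The remaining 10 genes were under the filter, and they include the hematopoietic and endothelial factors SPI1, SPIB, SPIC, ERG and FLI1. ETV3L, FEV, ELF5 and SPI1 were listed at 0 in all 6 samples. ERG and FLI1, the neighbours of ETS2 and ETS1, were listed at 0 in all 3 parental samples and at most at 0.0534 FPKM in an adapted one. ETV2, ETV7, SPIB and SPIC were also under the filter, and the highest of their means was 1.0 FPKM, for ETV7 in adapted cells.

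**Figure D3:**
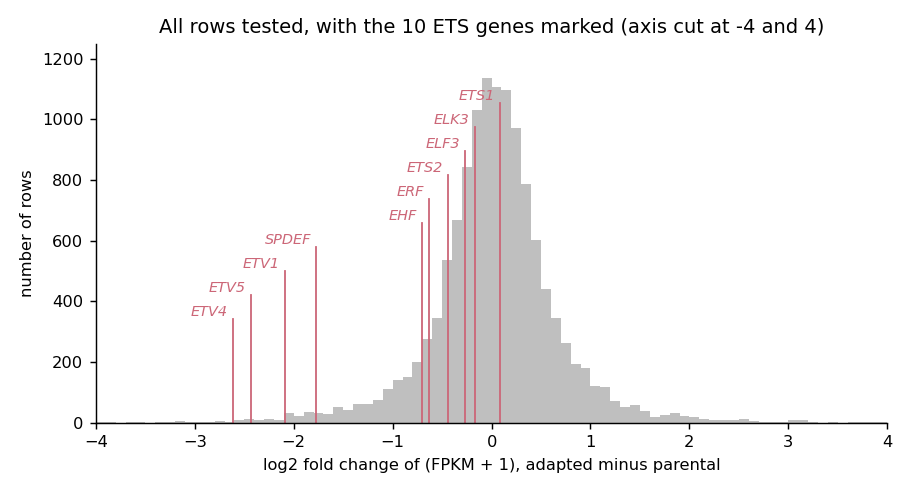
Number of rows (vertical axis) by log2 fold change, adapted minus parental (horizontal axis, bins of 0.1), for the 12656 rows tested, with a red line for each of the 10 ETS genes. The rows centre on 0.03, 6 members lie inside the bulk of the distribution, and ETV4, ETV5, ETV1 and SPDEF lie in its lower tail, outside the 5th percentile of -1.02.

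FPKM is scaled to length, so levels can also be compared between ETS genes. The 28 ETS genes summed to 579.3, 575.5 and 563.7 FPKM in parental cells and to 466.3, 463.7 and 465.8 FPKM in adapted cells. The sum was lower in every adapted sample, with a difference of -0.30 on the log2 scale between means of 572.8 ± 8.15 and 465.3 ± 1.4 FPKM (SD, n = 3). The two-sided exact permutation p was 0.1, the smallest that 3 against 3 samples allow, and so not under 0.05. ELF3 alone made up 46.0% ± 0.885 of the sum in parental and 47.1% ± 1.45 in adapted cells. The PEA3 subfamily went from 35.8 ± 1.45 to 4.29 ± 2.19 FPKM, that is from 6.25% to 0.921% of the sum. ELF1, ELF2 and ELF4 together went from 61.9 ± 0.904 to 73.3 ± 5.0 FPKM, from 10.8% to 15.7% of the sum. ETS1 and ETS2 together had 53.0 ± 2.16 and 53.4 ± 12.8 FPKM, a difference within the spread.

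The order of the ETS genes by mean FPKM shifted accordingly. Parental cells had ELF3, EHF, ETS1 and ELK3 at the top, at 263, 54.4, 40.9 and 27.3 FPKM. ELK3 and the next 2 genes, ELF1 at 25.9 ± 1.82 and ELF4 at 25.01 ± 0.384 FPKM, lay close together. Adapted cells had ELF3, ETS1, ELF4 and EHF at the top, at 219, 44.7, 34.6 and 33.0 FPKM. ETS1, with an SD of 14, overlapped ELF4 there. Its lowest adapted value, 35.36 FPKM, was just above the highest of EHF, 35.12 FPKM. ETV5 moved from rank 8 to rank 15 of the 28 genes and ETV4 from rank 9 to rank 17, while SPDEF kept rank 16.

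**Figure D4:**
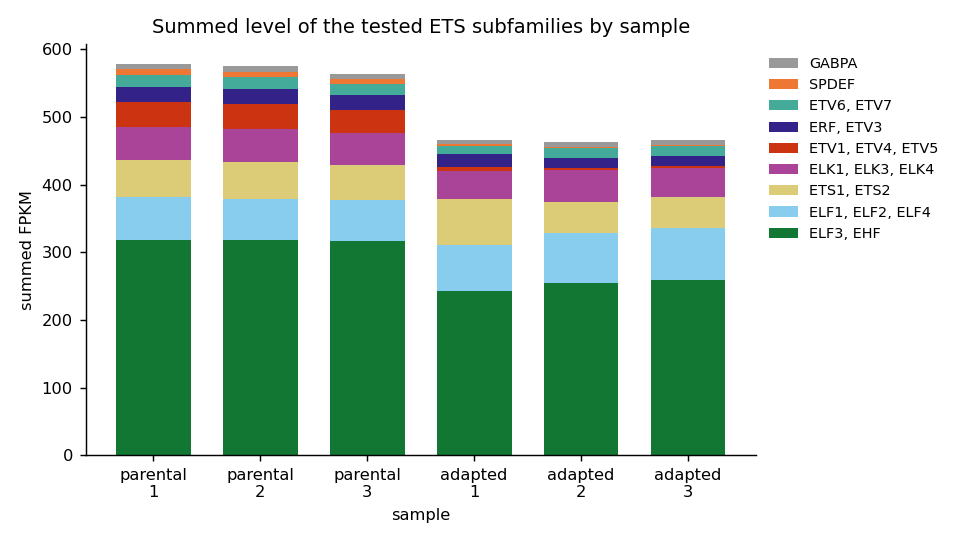
Summed FPKM (vertical axis) of ETS genes in each of the 6 samples, stacked by subfamily, with subfamilies that hold no tested gene left out. The parental bars average 572.8 and the adapted bars 465.3 over all 28 genes, and the red band of ETV1, ETV4 and ETV5 shrinks from 35.8 to 4.29 FPKM on average.

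The pathway upstream was examined with 20 genes from EGFR to ERK. Of these, 7 rose, against 30.7% of all rows, 5 fell, against 26.2%, and 8 did not pass the threshold. These counts are near the shares of all rows, and the median log2 fold change was 0.03. EGFR itself had a log2 fold change of 0.00 (SE 0.07, limma adjusted p = 0.976). MAP2K1, the kinase that activates ERK, fell by 1.09 (adjusted p = 0.000217), the scaffold KSR1 by 1.01 (adjusted p = 7.22e-05) and the adaptor GAB1 by 0.76 (adjusted p = 0.00103). The receptor ERBB2 rose by 0.93 (adjusted p = 0.000458). MAP2K2, which also activates ERK, was counted among the 7 that rose, but its 3 adapted values carried an added constant of 0.65 that took them off the 6-decimal grid of the table. With this constant subtracted its log2 fold change was 0.01 (adjusted p = 0.898). No ETS gene carried such a constant.

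Of 20 genes that ERK signaling induces in many cells, 18 were tested. Of these, 12 fell, against 26.2% of all rows, 1 rose, against 30.7%, and 5 did not pass the threshold (median log2 fold change -1.07). The immediate early factor EGR1 went from 4.21, 4.19 and 4.14 to 0.34, 0.15 and 0.28. Its log2 fold change was -3.92, with a limma adjusted p of 3.47e-07. The ERK phosphatases DUSP5 and DUSP6 fell by 3.56 and by 3.01 (adjusted p = 1.97e-06 and 3.17e-06). The ephrin receptor EPHA4 rose by 1.81 (adjusted p = 2.24e-05). By immunoblots of phosphorylated ERK, AKT and S6 in this line, the study reported that inhibition by Osi was still present in adapted cells. Whether the ETS genes followed ERK activity was not tested, since no measure of the kinase in these samples is in the table.

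Adapted replicate 1 departed from replicates 2 and 3, and toward the parental samples, over the table as a whole and not only in ETS genes. Its difference from the mean of the other 2 had a median of 0.33 over the 10 members, with 6 above 0, and of 0.33 over the 18 ERK-induced genes, with 16 above 0. For the 20 epithelial genes the median was -0.25, with 3 above 0. For all 12656 rows tested it was 0.00, with 6373 above 0, a share close to that of the members. The 6 members above 0 were ETV1, ETV4, ETV5, SPDEF, ETS1 and ERF, the first 4 being those that fell most. FOSL1, DUSP4 and CCND1, ERK-induced genes named after their values were seen, stood in adapted replicate 1 at 5.74, 3.27 and 5.85, within or above the parental range, and they passed the threshold without this library only (-1.29, -0.70 and -0.47, limma adjusted p = 2.39e-05, 0.000619 and 0.000862). Without it, all 8 members that fell still did so. The log2 fold changes were then -2.79 for ETV4, -2.75 for ETV5, -2.22 for ETV1 and -1.997 for SPDEF. They were -0.72 for ERF, -0.67 for EHF, -0.37 for ETS2 and -0.24 for ELF3, with a highest limma adjusted p of 0.0045 among the 8. What sets this sample apart was not tested.

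**Figure D5:**
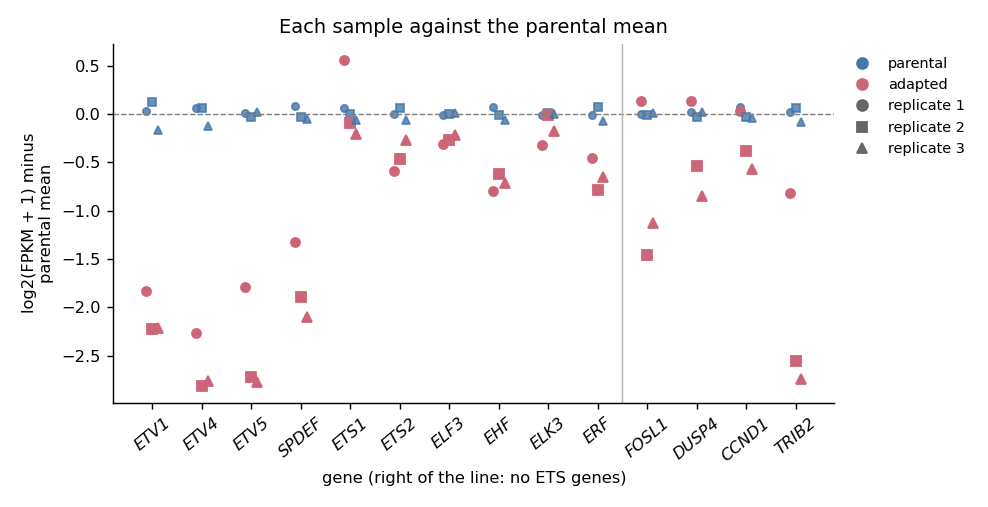
Log2(FPKM + 1) of each sample minus the parental mean of the gene (vertical axis) for the 10 ETS genes and, right of the line, FOSL1, DUSP4, CCND1 and TRIB2 (blue for parental, red for adapted, marker shape for the replicate number). The red circles, adapted replicate 1, lie above the other red points in ETV1, ETV4, ETV5, SPDEF, ERF, ETS1 and the 4 genes on the right, and under them in ETS2, ELF3, EHF and ELK3.

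Of 20 partners and regulators of ETS proteins, 7 rose, against 30.7% of all rows, and 4 fell, against 26.2%. The other 9 did not pass the threshold, and the median log2 fold change was 0.05. These counts are near the shares of all rows. CIC, the repressor of the PEA3 genes, stood at 3.30, 3.32 and 3.27 in parental cells and at 3.29, 3.14 and 3.23 in adapted cells, which overlap (log2 fold change -0.08, SE 0.07, limma adjusted p = 0.362). Of its corepressors, ATXN1 had -0.09 (adjusted p = 0.518) and ATXN1L rose by 0.40 (adjusted p = 0.00225). COP1 and DET1, which target ETS proteins for degradation, had 0.11 and 0.12 (adjusted p = 0.22 and 0.378). The table gives RNA, and the activity of CIC and the amounts of ETS proteins were not measured in it.

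All 3 tribbles pseudokinases, adaptors of COP1, fell. TRIB2 stood at 3.95, 3.98 and 3.84 in parental cells and at 3.11, 1.36 and 1.17 in adapted cells, so that adapted replicate 1 was between the parental samples and the other adapted samples (log2 fold change -2.04, SE 0.46, limma adjusted p = 0.00738). TRIB1 and TRIB3 fell by 0.76 and by 0.75 (adjusted p = 0.000129 and 0.000126). MRTFA, a coactivator of SRF that competes with the ternary complex factors, rose by 0.95 (adjusted p = 4.05e-05). The ETS1 partner RUNX1 rose by 0.57 (adjusted p = 0.00151), and the acetyltransferase CREBBP by 0.54 (adjusted p = 0.00488).

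Among proteases and other invasion genes known to have ETS sites in their promoters, 7 of 15 passed the filter. Of these, 4 fell, against 26.2% of all rows, 2 rose, against 30.7%, and 1 did not pass the threshold. The integrin ITGA5 fell by 1.35 (limma adjusted p = 0.000169) and the urokinase receptor PLAUR by 0.86 (adjusted p = 5.30e-05). Matrilysin, MMP7, fell by 0.97 (adjusted p = 0.0188), a call lost without parental replicate 1 or 3 or adapted replicate 2 or 3 (-0.99, -0.93, -0.74 and -0.85, adjusted p from 0.0502 to 0.0663). The intermediate filament gene VIM rose by 3.95 (adjusted p = 1.25e-05), a larger change than that of any ETS gene.

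Markers of cell types were summed to check the label of the cells. The 6 epithelial markers were all above 1 FPKM in every sample and summed to between 3710 and 3740 FPKM in parental and between 3490 and 3790 FPKM in adapted cells. Within this sum KRT7 rose by 1.07, KRT19 fell by 0.75, KRT18 fell by 0.57 and KRT8 fell by 0.28 (limma adjusted p = 0.000219, 0.000474, 0.00427 and 0.0477), while EPCAM and CDH1 did not pass the threshold. The call on KRT8 was lost when any sample but adapted replicate 1 was left out (adjusted p from 0.111 to 0.134). The 6 leukocyte markers summed to at most 1.15 FPKM, with CD3E and HBB at 0, and the 5 endothelial markers to at most 3.51 FPKM. The 6 fibroblast markers went from between 3.04 and 3.16 to between 7.66 and 9.21 FPKM, mostly COL1A1. Their part in the differences of the ETS genes was not tested.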

How the data were processed

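RNA sequencing of 6 samples of H1975 cells, 3 parental and 3 adapted, was analyzed. The authors deposited 1 table of 27216 rows on a log2 scale without naming the unit, and it was read as log2(FPKM + 1), since undoing the log2 and the added 1 left no more than 6 decimals in 27069 rows. The linear values summed to 375342 to 387753 per sample. The submitters' processing notes name Bowtie2 2.1.0, STAR, edgeR and hg38; the quantifier, annotation and strand setting are not given in the sources used here. The study's own test needs counts, so limma 3.58.1 in R 4.3.3 (lmFit, eBayes with a trend) was applied to rows with a mean of at least 1. Whether low values move in steps of single reads was not tested. In 147 rows, none of them an ETS gene, the values of 1 group carry an added constant, and they were used as deposited. Columns were matched to samples by group and replicate number.

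The members and lists were chosen with earlier results of these data known, so no list was tested as a set. The genes named were the 10 members, every other ETS gene, from each list at most 3 genes per direction with the largest called change and no overlap between groups, and CIC, ATXN1, ATXN1L, COP1 and DET1. A few genes that this rule takes in are not reported here. Other genes were named after their values were seen. Ratios and the summed ETS level were compared with exact permutation tests in Python 3.11.15. Positions are from GENCODE v29 and promoters from RefSeq. The limma script was tested on simulated data. Alternatives were other pseudocounts, filters, scalings, variance models and thresholds, the replicate block, and leaving out each sample.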

Additional observations from a re-analysis of the deposited data

How the results depend on the processing

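The 8 falls among the 10 members were counted as 7 under quantile normalization, as 8 or 9 when each sample was left out in turn, as 4 with a log2 fold change of 1 or more in size, and as 4 with a mean of at least 3 required, a filter that removes ETV1, ETV4, ETV5 and SPDEF and leaves 6 members. No member rose in any of these settings. Over all rows 7202 passed the threshold, 3889 higher and 3313 lower, against 4532 of 7693 with the stricter filter, 1328 with the added fold threshold, 8759 with no filter and between 5763 and 8370 with a sample left out. The log2 fold changes of the members kept their sign except that of ETS1, which was -0.15 without adapted replicate 1 and 0.23 without adapted replicate 3. They ranged over the alternatives from -3.91 to -2.02 for ETV1, from -3.14 to -2.52 for ETV4, from -2.87 to -2.26 for ETV5 and from -2.21 to -1.61 for SPDEF. The difference in the summed ETS level, -0.30, was -0.23 after quantile normalization, -0.41 over the 10 members only and between -0.31 and -0.29 with a sample left out. Leaving out samples for the FPKM ratios was added after the data were seen. Among the other genes listed, 1669 gene and setting pairs kept direction and side of the threshold, 53 lost the call and 17 gained it.

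Same-numbered samples did not deviate together (correlations across rows of -0.05, -0.03 and -0.02). These correlations cannot settle whether such samples shared a culture, day or batch, which the labels do not state. With the replicate block 6761 rows passed the threshold, the 8 members still fell, and the summed ETS level differed by -0.30. Depth is unknown, and values near 0, such as ETV1 in adapted cells, are limited by it and by the pseudocount.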
